A study of Mus musculus with 11 samples.

Results

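Of 11 lymphomas from mice carrying the E-mu-BRD2 transgene, 3 had a bright microarray signal for Ms4a4b and the other 8 had almost none. The tumours were selected on the Ms4a4b signal itself: an array was called bright where the main Ms4a4b probe set read above 1000, and dim where it read below 50. The bright lymphomas were marginal 5, marginal 6 and transitional 3, numbered as in the submitters' sample titles, and the dim ones were marginal 1 to 4 and transitional 1, 2, 4 and 5. The split is therefore not a group of the study's design, and the Ms4a4b values below are a description with no test. The question asked of all other probe sets was whether the bright tumours shared a B cell subtype or a T cell share.

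The samples were lymphomas that arose sporadically in E-mu-BRD2 mice of the FVB strain, 1 array for each tumour, with 6 labelled marginal and 5 labelled transitional. These labels are classes of disease severity in the submitters' design, not B cell subtypes. The design also names a further severity class and resting and mitogen-activated B cells, which were not analysed here. In these mice the bromodomain protein BRD2 is expressed from the immunoglobulin heavy chain enhancer E-mu, which acts in lymphoid and above all B lineage cells, and all 11 tumours carry the transgene, so there is no array here of a mouse without it. Every tumour was recorded as oligoclonal for immunoglobulin. Ages were not given in the labels used here.

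Ms4a4b encodes a membrane-spanning protein of the Ms4a family, to which the B cell antigen CD20 (Ms4a1) also belongs, and in mice it is known mainly from T cells, where it modulates T cell activation. Bulk tumour RNA mixes the tumour cells with the T cells, myeloid cells and stroma around them. B1 cells are a self-renewing B cell population of the body cavities and spleen that secretes natural IgM, depends in part on interleukin 5, and is usually recognised by CD5 and CD11b (Itgam) on the surface.

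The sequences shown here are the promoter of the gene that divides the tumours and that of Il5ra, the B1 list gene with the widest gap between bright and dim arrays. Both run from 250 bases before to 50 bases after the start of the gene in RefSeq (GRCm38.p6) and are written 5′ to 3′ on the gene's strand, with capitals marking the letters GAGGAA. The Ms4a4b stretch lies on the plus strand at chr19:11443308-11443607 and the Il5ra stretch on the minus strand at chr6:106748988-106749287.
Ms4a4b: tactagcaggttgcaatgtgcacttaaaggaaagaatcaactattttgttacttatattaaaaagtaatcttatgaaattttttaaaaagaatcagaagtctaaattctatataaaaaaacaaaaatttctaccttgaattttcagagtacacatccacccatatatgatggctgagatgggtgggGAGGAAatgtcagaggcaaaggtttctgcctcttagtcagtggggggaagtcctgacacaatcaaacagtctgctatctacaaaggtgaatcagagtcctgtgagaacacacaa
Il5ra: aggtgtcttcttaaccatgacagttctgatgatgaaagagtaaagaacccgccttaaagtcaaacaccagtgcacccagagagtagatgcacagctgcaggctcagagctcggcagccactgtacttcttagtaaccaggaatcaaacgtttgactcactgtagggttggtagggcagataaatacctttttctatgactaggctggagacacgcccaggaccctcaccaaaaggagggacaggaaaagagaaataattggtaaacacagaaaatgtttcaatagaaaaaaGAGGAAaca
The 3 motifs searched on both strands were GAGGAA, a core recognised by ETS factors with its flank, the octamer ATGCAAAT, and the interferon-stimulated response element. Each of the 2 printed promoters held GAGGAA once and neither of the others. The promoters of Mcoln2 and Il13ra1, which mark the bright and dim sides below, held none of the 3. GAGGAA was present in 28.3% of 32851 RefSeq promoters of this length, the octamer in 1.74% and the interferon motif in 3.44%, so these matches only describe the printed letters.

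The main Ms4a4b probe set read 1825 in marginal 5, 2749 in marginal 6 and 3430 in transitional 3, as MAS5 signals, which are intensities on a linear scale. In the 8 dim tumours it read 2.4 at the lowest, 6.35 at the median and 11.9 at the highest, far under the median signal of the whole array (98.8 to 151). No tumour fell between the 2 groups, and dim signals this low say little beyond low, so no fold is given. A second Ms4a4b probe set read 160, 71.4 and 78.8 in the bright tumours against 0.9 to 74.9 in the dim ones, so on that probe set the groups overlapped and the sharp division was not seen.

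Bright tumours occurred in both recorded classes. Transitional tumours made up 1 of the 3 bright and 4 of the 8 dim lymphomas (Fisher's exact test, two-sided, p = 1). Failure to nest was recorded for 1 of the 3 bright and 6 of the 8 dim animals (Fisher's exact test, two-sided, p = 0.491, Benjamini-Hochberg adjusted p = 1 over 3 label tests). The mean rank of the recorded spleen enlargement was 2.67 in the bright and 3.12 in the dim animals (exact permutation test over 165 splits, two-sided, p = 0.8, adjusted p = 1). With 3 tumours against 8, the smallest p that this permutation test can give is 0.0121.

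Ms4a4b was bright without its chromosomal neighbours. In the RefSeq gene order on chromosome 19 the nearest genes with a probe set are Ms4a4c, Ms4a7, Ms4a1, Ms4a8a and AW112010 on one side and Ms4a6c, Ms4a6b, Ms4a4d, Ms4a6d and Ms4a2 on the other, and in each of these 10 genes the bright and dim ranges overlapped. Ms4a4c read 1120, 840 and 2732 in the bright tumours against 514 to 3796 (median 1683) in the dim ones, a difference of −0.28 in mean log2(signal + 16) (SE 0.58). Ms4a6b read 5928, 3560 and 5866 against 1219 to 9886 (difference 0.20, SE 0.57), and Ms4a6c read 3522, 2238 and 3178 against 505.4 to 3155 (difference 1.17, SE 0.50). Abundant signal from Ms4a4c and Ms4a6b was thus present in dim tumours that had almost none from Ms4a4b. All differences below are bright minus dim means on this log2(signal + 16) scale, which understates the change of dim probe sets.

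Ms4a1, the CD20 gene and a marker of mature B cells, read 23160, 17640 and 24760 in the bright tumours and 2812 to 22750 (median 14630) in the dim ones, a difference of 1.11 (SE 0.59, limma with Benjamini-Hochberg adjustment over all probe sets, adjusted p = 0.487). Of the Ms4a list of 13 measured genes, which also holds the related Tmem176a and Tmem176b, 6 had a higher and 7 a lower mean in the bright tumours, and the list median was −0.28. Tmem176b, a membrane protein of myeloid and dendritic cells, was the list's only member without overlap: it read 376.3, 144.5 and 559.2 in the bright tumours against 699.6 to 2293 in the dim ones (difference −2.00, SE 0.42, adjusted p = 0.236). Ms4a3, a member expressed in granulocyte precursors, read 169.8, 100.9 and 140.3 in the bright tumours. Among the dim tumours it was above 1000 in marginal 1 (8900), marginal 3 (3050), transitional 4 (3765) and transitional 5 (3846), and between 23.2 and 324.9 in the others.

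**Figure D1:**
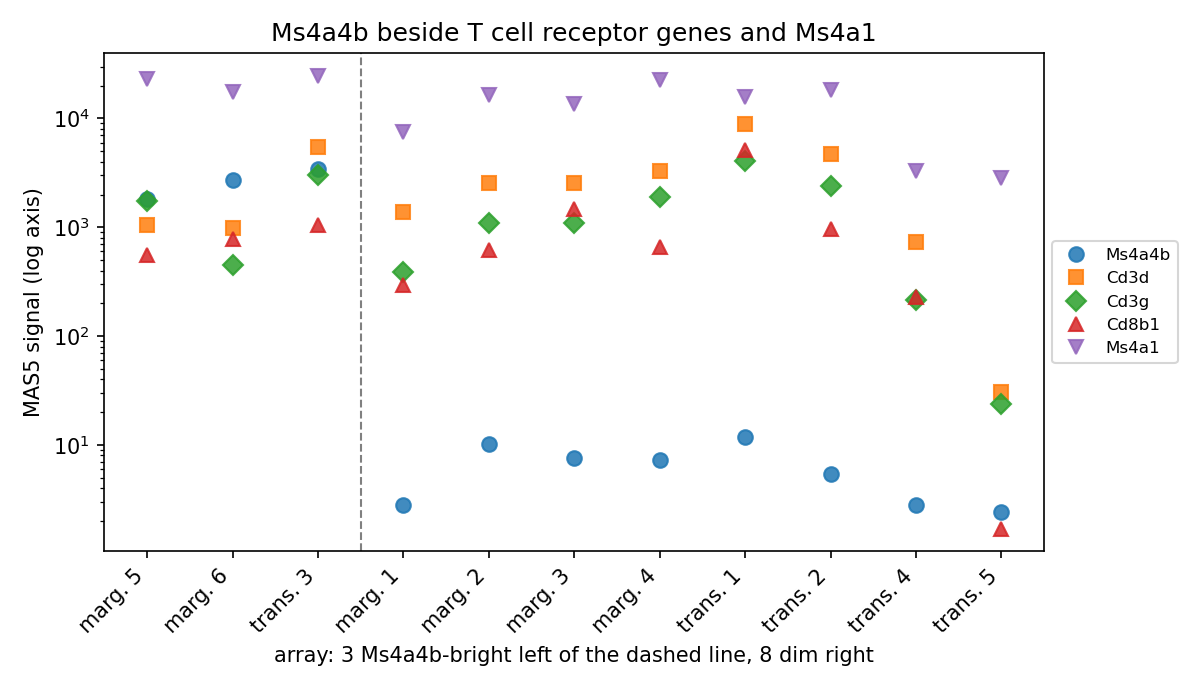
MAS5 signal (log axis) of Ms4a4b, the T cell genes Cd3d, Cd3g and Cd8b1, and Ms4a1 on each array, with the 3 bright tumours left of the dashed line and the 8 dim ones right of it. Ms4a4b steps from at most 11.9 to at least 1825, while Cd3d is highest in a dim tumour, transitional 1, at 8923.

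Across the 22624 probe sets other than controls and Ms4a4b, none passed an adjusted p of 0.05 in limma, neither higher (0%) nor lower (0%) in the bright tumours. At an unadjusted p of 0.05, 1600 were higher (7.07%) and 997 lower (4.41%). In 498 probe sets (2.20%) all 3 bright tumours lay above all 8 dim ones, and in 226 (0.999%) all 3 lay below, together 724 (3.20%). The smallest adjusted p was 0.0927. Because no probe set passed, the genes below are given by their values, and none is called changed over all 11 tumours. The tumours are separate animals' samples by their labels, and 3 bright tumours against 8 dim ones limit the precision.

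Among named genes, those whose pattern was most like that of Ms4a4b were taken as the 8 in each direction with the widest log2 gap between the lowest bright and the highest dim value over the 11 arrays. On the bright side the widest gap belonged to Mcoln2, an endolysosomal cation channel, which read 1732 in marginal 5, 1863 in marginal 6 and 1511 in transitional 3, against 63.7 to 560.2 (median 345.2) in the dim tumours. The 3 bright values were close to each other and stood apart from every dim tumour by 1.41 on the log2 scale (difference 2.53, SE 0.52, adjusted p = 0.234). Fgd6, a guanine nucleotide exchange factor, read 459.9, 838.3 and 524.4 against 115 to 218.1 (median 148.1), a difference of 1.82 (SE 0.28, adjusted p = 0.184). Pafah1b3, a catalytic subunit of platelet-activating factor acetylhydrolase, read 2374, 2739 and 2667 against 184.4 to 1355 (median 466), a difference of 2.27 (SE 0.53, adjusted p = 0.276). Klhl13, a substrate adaptor of a cullin ubiquitin ligase, was uneven among the bright tumours at 2691, 165.7 and 497.7, with dim values from 1.3 to 94.1 (difference 3.75, SE 0.73, adjusted p = 0.224).

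The other 4 genes with the widest gaps on the bright side were Trpm5, a cation channel (difference 2.03), Rabgap1l, an activator of Rab GTPase hydrolysis (1.38), Nacc2, a transcriptional repressor (2.17), and Ndufv1, a subunit of respiratory complex I (1.38). Ndufv1 read 1276, 1512 and 1205 against 280.7 to 742.2, and Rabgap1l 1119, 834.8 and 884.8 against 160.7 to 505.1, so both were well above the lowest signals in every tumour, but the 2 further Ndufv1 probe sets differed by 0.76 and −0.04. Trpm5 read 292.3 in marginal 5 but only 64.1 and 66.8 in the other bright tumours. Genes with a small p but a narrower gap were Mtmr14, a phosphoinositide phosphatase (937, 950.7 and 1077 against 485.5 to 653.4, difference 0.84), Kcnk1, a potassium channel (18.1, 40 and 92 against 2.1 to 6.9), and the low-signal genes Pip and Slc22a8.

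On the dim side the gene with the smallest p of all was Il13ra1, a subunit of the receptors for interleukins 13 and 4. It read 9.8, 3.8 and 7 in the bright tumours against 76.9 to 259.5 (median 119.4) in the dim ones, a gap of 1.85 and a difference of −2.60 (SE 0.34, adjusted p = 0.0927). It passed 0.05 with plain eBayes (adjusted p = 0.0407), quantile normalization (0.0376), median centring (0.0355) or an offset of 1 (0.0126). Its other 4 probe sets also had lower bright means, by smaller differences of −0.40 to −1.36. The probe set given here was not the gene's brightest. With each gene read from its brightest probe set, the smallest adjusted p in limma over all genes was 0.184. Cnn3, an actin-binding calponin, was well measured on both sides, at 255.7, 201.6 and 250 against 644.4 to 2861 (median 936), a difference of −2.15 (SE 0.38, adjusted p = 0.191). Its other 5 probe sets had lower bright means too (−0.75 to −1.92). Tle1, a Groucho family corepressor, read 6.9, 11.4 and 12.5 against 51.1 to 143.7 (difference −1.95, SE 0.33, adjusted p = 0.191), but −0.53 on its second, brighter probe set. Slc25a13, a mitochondrial aspartate and glutamate carrier, read 13.1, 5.9 and 4.1 against 49 to 184.9 (difference −2.44, SE 0.38, adjusted p = 0.184). For Il13ra1, Tle1 and Slc25a13 the bright signals were thus a few units, where the scale carries little information beyond low.

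Of the others on the dim side, Sdf2l1, a chaperone cofactor of the endoplasmic reticulum, read 279.1, 254.1 and 224 against 545.1 to 1143 (difference −1.56, SE 0.26, adjusted p = 0.191), and Chchd10, a mitochondrial protein, read 539.2, 575.5 and 501.2 against 982.4 to 3110 (difference −1.77, SE 0.31, adjusted p = 0.191). In both, the bright tumours were tightly grouped below the lowest dim one. Selenom, a selenoprotein of the endoplasmic reticulum, differed by −2.17, Ltb4r1, the leukotriene B4 receptor of granulocytes, by −2.58, and Aldh1b1, a mitochondrial aldehyde dehydrogenase, by −1.82. Ltb4r1 was highest in marginal 1 (1083) and transitional 4 (500), which are also among the 4 dim tumours with high Ms4a3.

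**Figure D2:**
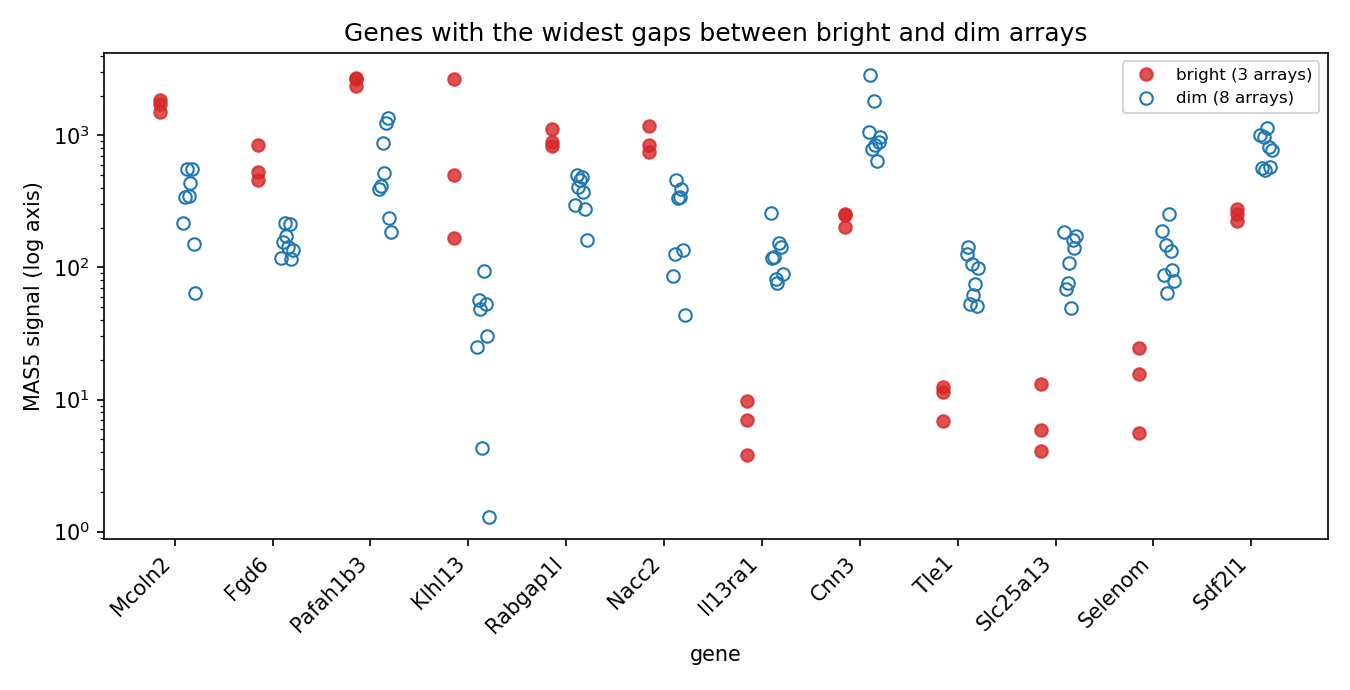
MAS5 signal (log axis) of 12 genes chosen from those with the widest gaps between bright (filled, 3 arrays) and dim (open, 8 arrays) tumours. Of the 12, 6 were higher and 6 lower in the bright ones. Trpm5 is not shown, although its gap (0.79) was wider than those of Klhl13 (0.72), Rabgap1l (0.71) and Nacc2 (0.70). Each point is an array, and in each gene shown the filled and open points do not overlap, as for Mcoln2 (1511 to 1863 against 63.7 to 560.2).

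The genes of the T cell receptor complex did not run with Ms4a4b. Cd3d, a chain of the CD3 complex, read 1050 in marginal 5, 985.4 in marginal 6 and 5414 in transitional 3, against 30.9 to 8923 (median 2543) in the dim tumours, a difference of 0.16 (SE 1.22, adjusted p = 0.969). The highest Cd3d belonged to transitional 1, whose Ms4a4b was 11.9, and the next among dim tumours to transitional 2 (4670), whose Ms4a4b was 5.4. Marginal 5 and marginal 6, both Ms4a4b-bright, had less Cd3d than 6 of the 8 dim tumours. In bulk RNA, fewer cells of a type and less RNA per cell cannot be told apart.

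Cd3g read 1758, 447.4 and 3045 against 23.9 to 4036 (difference 0.89, SE 1.15), Cd3e 315.4, 126.4 and 356 against 14.2 to 1389 (−0.40, SE 0.92), and Cd247, the zeta chain, 178.8, 89.7 and 233.7 against 3.5 to 1298 (−0.69, SE 0.99). All 3 sat inside the dim range in every bright tumour. The coreceptor Cd4 read 47.6, 7.2 and 197 against 6 to 799.1 (−1.19, SE 1.02). Cd8a read 313, 344.2 and 293.6 against 31.1 to 3249 (−0.29, SE 0.92), and Cd8b1 562.4, 773.9 and 1044 against 1.7 to 5135 (0.63, SE 1.20). Thy1, a surface protein of T cells, read 120.3, 90.7 and 175.1 against 53.6 to 505.5 (−0.79, SE 0.55). None of these T cell markers read 0 in any tumour, and all were lowest in transitional 5.

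As lists, 5 of 10 measured T cell receptor and coreceptor genes had a higher mean in the bright tumours (list median −0.06), 4 of 15 T cell signalling and surface genes (−0.43), and 6 of 16 T cell transcription factor and cytokine receptor genes (−0.10). Over all 12392 genes, 56% had a higher mean and the median was 0.06. The summed signal of the 10 receptor genes was 5373, 3452 and 13080 in the bright tumours and ran from 229.7 to 26250 (median 6852) in the dim ones. Only Ctla4 and Il2ra of these lists lay above every dim tumour. Ctla4, an inhibitory receptor of activated T cells also reported in B1 cells, read 638.5, 495.2 and 1684 against 61.5 to 470.7 (difference 2.14, SE 0.63, adjusted p = 0.312), and Il2ra, the alpha chain of the interleukin 2 receptor, read 66.6, 71.6 and 123.7 against 14 to 55.1 (1.24, SE 0.33, adjusted p = 0.300).

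Natural killer and cytotoxic granule genes gave the same picture, with 6 of 16 higher in mean and a list median of −0.15. Nkg7, a granule membrane protein, read 445.9, 333.5 and 741.4 against 482 to 3632 (difference −1.36, SE 0.61), and perforin (Prf1) read 207.2, 99.1 and 180.2 against 62.6 to 1044 (−0.69, SE 0.71). Granzyme B (Gzmb) read 196.4, 60.5 and 222.6 against 47.1 to 4333, the highest in transitional 2. Ncr1, a receptor of natural killer cells, read 40.9, 26.1 and 115.5 against 15.7 to 176.6. Each of these genes overlapped between the groups.

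B lineage genes were well expressed in the bright tumours. All 16 measured genes of the B cell identity list had a higher mean there, with a list median of 0.88 beside 0.06 over all genes, and none passed the test. Ighm counted as higher on its brightest probe set (difference 0.20), although 9 of its 11 probe sets had a lower mean. Cd79b, a signalling chain of the B cell receptor, read 19860, 15020 and 18540 against 735.6 to 22210 (median 8685, difference 1.48, SE 0.82, adjusted p = 0.500). Its partner Cd79a read 13480, 7568 and 11300 against 910 to 16740 (1.06, SE 0.68). Blk, a Src family kinase of B cells, was the list's only member without overlap, at 7006, 4669 and 5294 against 442.9 to 3695 (1.75, SE 0.57, adjusted p = 0.324). Syk, a kinase downstream of the receptor, read 5914, 2517 and 5000 against 429.1 to 3098 (1.36, SE 0.55), and Pax5, the B lineage transcription factor, 82.4, 58.7 and 91.9 against 4.2 to 127.5 (0.30, SE 0.58).

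The B lineage values were read beside those of other blood cell genes. Each list was also scored on every array by averaging, over its members, the log2 distance from the member's mean of the 11 arrays. The B cell identity score was 0.30 to 0.95 in the bright tumours and −2.07 to 1.07 in the dim ones, with transitional 5 (−2.07) and transitional 4 (−1.72) far below. The neutrophil list score was 1.36 in transitional 5 and 2.53 in transitional 4. It was also high in marginal 1 (3.28) and marginal 3 (2.3), whose B cell identity scores were −0.33 and 0.06. All 13 neutrophil and granulocyte precursor genes had a lower mean in the bright tumours (list median −2.59), and their summed signal was 21230, 11480 and 44900 in the bright tumours against 9210 to 238400 (median 91140) in the dim ones. Without the 4 dim tumours with Ms4a3 above 1000, a restriction chosen after the values were seen, the median of the B cell identity list was 0.15, that of the neutrophil list −0.45, that of the T cell receptor list −1.34 and that of the B1 list 0.61. Without transitional 4 and 5 alone, the B cell identity median was 0.36. The part of these cells in the B lineage differences was not tested.

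Of the B cell subtype lists, the B1 list stood highest. Of its 15 measured genes, 11 had a higher mean in the bright tumours (median 0.62). Of the 15, 4, or 26.7%, lay above all 8 dim tumours beside 2.20% of all probe sets. As a whole the list did not separate the groups. Its score was 0.60 in marginal 5, 0.20 in marginal 6 and 0.79 in transitional 3, against −1.49 to 0.46 in the dim tumours. Marginal 6 was below the dim tumours marginal 4 (0.31) and transitional 2 (0.46). None of the 15 passed the test (smallest adjusted p = 0.276). The list was drawn up with earlier results of these data known, so its count is not independent evidence of a B1 character.

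Il5ra, the alpha chain of the interleukin 5 receptor whose promoter is printed above, read 2027 in marginal 5, 1836 in marginal 6 and 1040 in transitional 3, against 43.3 to 700.1 (median 235.7) in the dim tumours (difference 2.64, SE 0.63, adjusted p = 0.276). Zbtb32, a zinc finger repressor found in B1 and activated B cells, read 1640, 1538 and 1539 against 69.4 to 1419 (median 322.8, difference 2.25, SE 0.64, adjusted p = 0.302). Its bright values were nearly equal, and 1 dim tumour, transitional 2, came close to them at 1419. Ctla4 belongs to this list as well as to the T cell receptor list, with the values given above. Bhlhe41, a transcription factor needed for B1 cells, read 179.8, 190 and 223.3 against 69.2 to 179.1, so its separation from the dim tumours was only 0.01 on the log2 scale (difference 0.62, SE 0.30).

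Other B1 list genes overlapped. Nfatc1, a calcium-regulated transcription factor, read 4763, 2226 and 1655 against 187.8 to 1718 (difference 1.55, SE 0.59), and Ahr, the aryl hydrocarbon receptor, 359.1, 439.3 and 488.7 against 85.1 to 362.2 (1.13, SE 0.37). In each, 2 of the 3 bright tumours were above every dim one. The surface markers that define B1 cells did not follow: Cd5 read 514.1, 103.8 and 707.2 against 43.1 to 2112 (−0.36, SE 0.97), Itgam, which encodes CD11b, read 205.5, 59.6 and 278.5 against 73.8 to 1947 (−1.44, SE 0.75), and Spn, which encodes CD43, read 247.1, 188.4 and 539 against 143.6 to 614 (−0.27, SE 0.43). Bhlhe40, a paralog of Bhlhe41, read 225.6, 77.6 and 462 against 192.4 to 573.9 (−0.85, SE 0.44).

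Marginal 6 is the tumour for which the labels record flow cytometry, as positive for B220, CD5 and CD11b. On its array Itgam read 59.6, the lowest of all 11 tumours, and Cd5 read 103.8, above transitional 5 alone. Flow cytometry reads protein on single cells and the array reads RNA of the bulk tumour, so these are unlike measures. Cd5 is also expressed by T cells and Itgam by myeloid cells. The tumours highest in Cd5 (transitional 2 at 2112 and transitional 1 at 1829) were the dim tumours highest in Cd3d. Itgam was highest in marginal 1 (1947), where Ms4a3 was highest. The part of T cells and myeloid cells in the Cd5 and Itgam values was not tested.

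**Figure D3:**
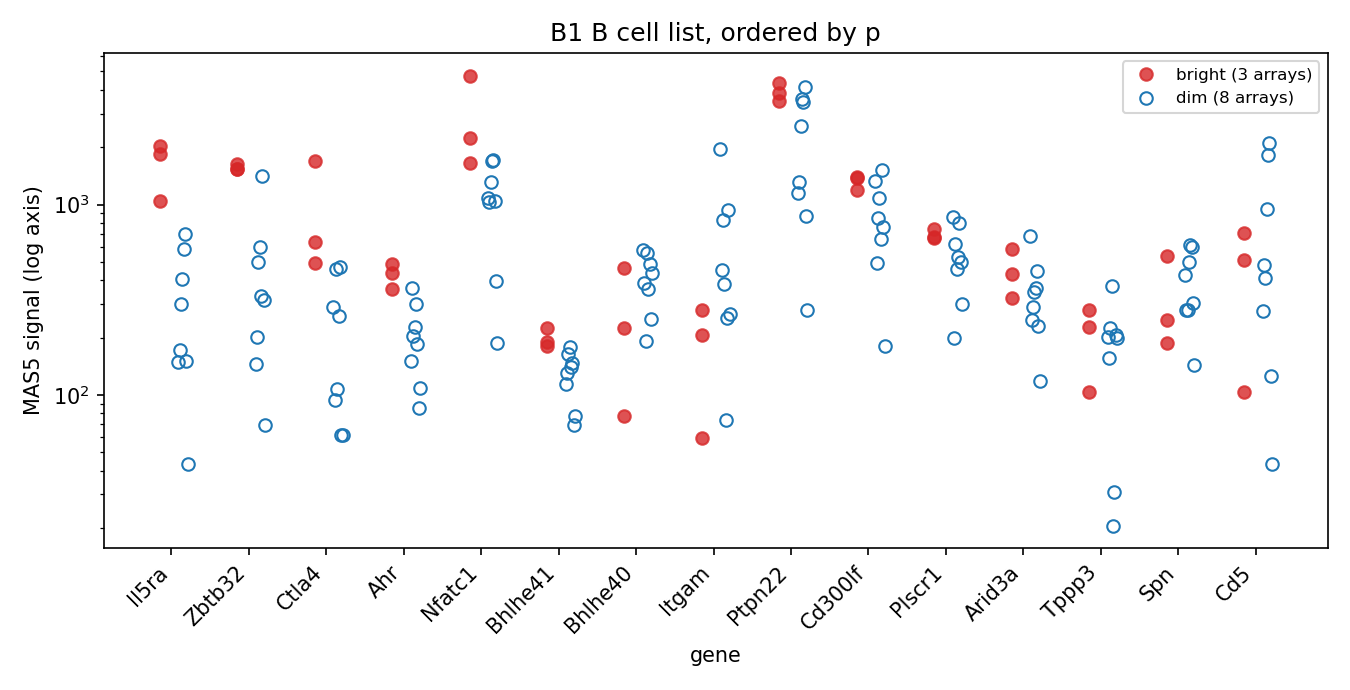
MAS5 signal (log axis) of the 15 measured B1 list genes, ordered by p, in bright (filled, 3 arrays) and dim (open, 8 arrays) tumours. Filled points lie above all open ones for Il5ra, Zbtb32, Ctla4 and, barely, Bhlhe41, and lie inside the open range for Cd5 (103.8 to 707.2 against 43.1 to 2112).

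On list scores, no B cell subtype list, B1 included, placed all 3 bright tumours outside the dim range. The pro-B and pre-B score came nearest on the low side. It was −0.56 in marginal 5, −0.73 in marginal 6 and 0.08 in transitional 3, against −0.41 to 0.83 in the dim tumours. Higher means were counted for 4 of 8 follicular genes (median 0.09), 4 of 12 marginal zone genes (−0.28), 4 of 8 germinal centre genes (0.06) and 2 of 12 pro-B and pre-B genes (−0.28). Sox4, a transcription factor of B cell precursors, was the precursor list's member without overlap, at 31.1, 48 and 71 against 76.4 to 719.2 (difference −1.82, SE 0.55, adjusted p = 0.312), though its other 5 probe sets ran from −1.25 to 0.56. Hes5, a Notch target in the marginal zone list, lay above the dim tumours by only 0.01 (68.8, 106.1 and 78.3 against 34.3 to 68.2). Satb1, a chromatin organiser placed in the follicular list, read 307.2, 214.8 and 309.5 against 144.5 to 2811 (−1.51, SE 0.69).

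Plasma cell genes were mostly lower in mean, with 3 of 12 higher and a list median of −0.51. Jchain, the joining chain of secreted IgM and IgA, read 6486, 1248 and 16940 against 3670 to 27730 (median 20590, difference −1.60, SE 0.71, adjusted p = 0.420). Sdc1, the plasma cell surface marker CD138, read 95.7, 54.4 and 109.6 against 54.6 to 1077 (−1.60, SE 0.65, adjusted p = 0.391). Transitional 3 had a high Jchain signal, so the 3 bright tumours were not alike in this respect.

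Immunoglobulin heavy chain probe sets differed among themselves. Of 11 probe sets annotated to Ighm, 9 had a lower mean in the bright tumours. Among the 7 with a median dim signal above 1000, 6 did. The remaining one of these 7, called A here, was even, at 33420, 24720 and 36300 against 12560 to 44420 (difference 0.20). Probe set B, by contrast, read 1220, 778.9 and 686.8 against 223.9 to 24820 (median 7482, limma difference −2.55, SE 1.03, adjusted p = 0.391). On probe set C the bright tumours read 198.2, 100.2 and 146.2 against 147.5 to 8322 (median 1576, difference −3.05, adjusted p = 0.300). The bright tumours were thus low on B and C together with 1 dim tumour, transitional 2, and were not low on A. When the dim group was restricted to the 4 tumours that, like the bright ones, had Eif2s3y below 100, which leaves out transitional 2, 9 probe sets fell at an adjusted p of 0.05 in limma and none rose. These 9 comprised 5 of Ighm (differences −3.11 to −3.53, smallest adjusted p = 0.00935), 2 of Igk (−2.66 and −3.00) and 2 with no single gene name. Here and below, no single gene name means annotated to several genes or to none. The restriction was chosen after the data were seen. An Igha probe set read 14120, 768.8 and 7343 against 1542 to 47230. Probe sets of this family can read related sequences of several genes, and the sources used here do not say which part of the transcript each reads.

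**Figure D4:**
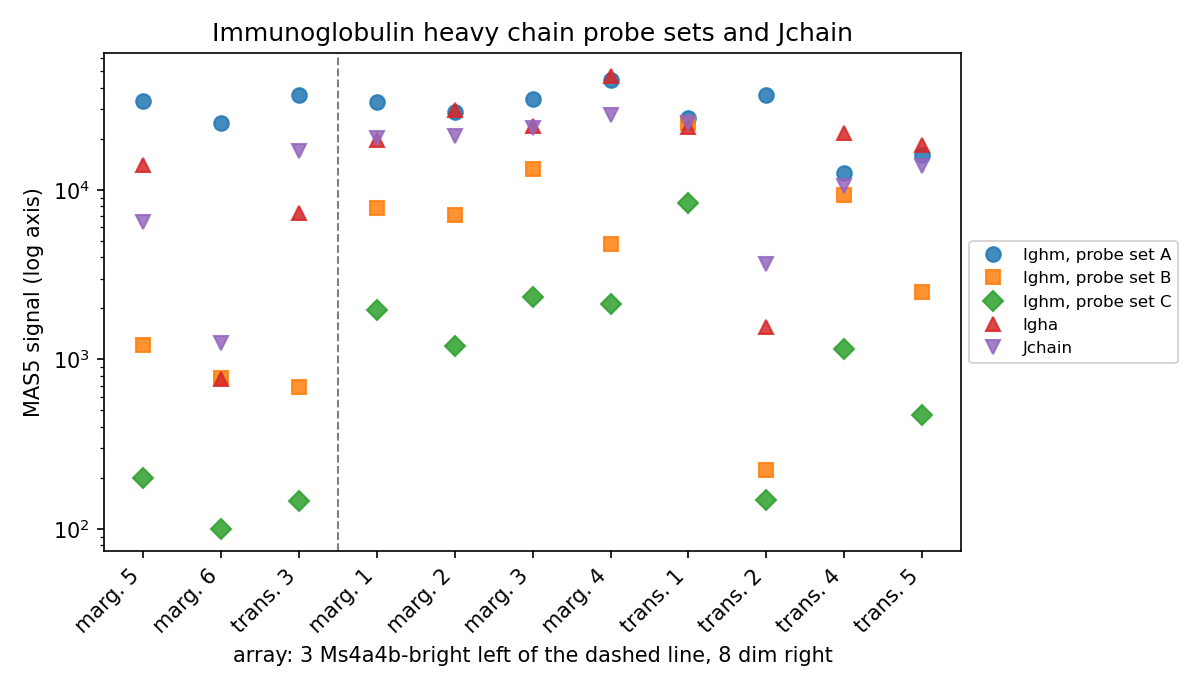
MAS5 signal (log axis) of 3 Ighm probe sets, 1 Igha probe set and Jchain on each array, bright tumours left of the dashed line. Ighm probe set A stays between 12560 and 44420 on all arrays, while probe set B is at or below 1220 in the 3 bright tumours and in 1 dim tumour, transitional 2.

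Among lists of other cell states, all 15 mitosis genes had a lower mean in the bright tumours (median −0.76). Cdc20, an activator of the anaphase-promoting complex, read 1089, 2944 and 1259 against 1419 to 7144 (difference −1.12, SE 0.49, adjusted p = 0.416), with the highest values in transitional 5 (7144) and transitional 4 (6935). Without the 4 tumours with Ms4a3 above 1000 the median of the mitosis list was 0. Antigen presentation genes of class II had a higher mean in 9 of 9 (median 0.50). The class II list score was 0.05 to 0.82 in the bright tumours and −1.58 to 1.12 in the dim ones, lowest in transitional 4 (−1.58) and transitional 5 (−1.37). H2-Eb1, a class II beta chain, read 17480, 11210 and 3848 against 567.7 to 15640 (1.60, SE 0.91). It was also high in the dim tumours transitional 1 (14220) and transitional 2 (15640). Interferon lists stayed near the background, with 11 of 17 type I genes (median 0.13) and 10 of 16 interferon gamma genes (0.25) higher in mean. Macrophage and monocyte genes had 4 of 14 higher (−0.78), and of these Ccr2, a chemokine receptor, lay below all dim tumours at 84, 198.6 and 241.5 against 254.3 to 910.9 (−1.57, SE 0.41, adjusted p = 0.289). Erythroid genes had 1 of 10 higher (−0.82) and megakaryocyte genes 1 of 8 (−1.31).

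The class I gene H2-D1, on the probe set where it varied most, was bright in marginal 5 (5888) and marginal 6 (3871) but not in transitional 3 (345.3). On that probe set it was also bright in the dim tumours transitional 1 (9722), transitional 2 (10140) and transitional 5 (2504). Probe sets of H2-D1 differed among themselves. On the gene's brightest one, marginal 5 (15430) and marginal 6 (11390) were below marginal 1 to 4 (16340 to 26440), and transitional 3 (27110) was highest of all. Brd2, the mouse gene for which the transgene is named, did not separate the groups on either probe set (differences 0.06, SE 0.26, and 0.03, SE 0.23). The Y-linked Eif2s3y read below 100 in all 3 bright and in 4 of the 8 dim tumours. The comparison with those 4 is given above beside the immunoglobulin values. Gapdh 3′ to 5′ signal ratios were 0.681 to 0.839 on the bright arrays and 0.635 to 0.703 on the dim ones. Actin 3′ to 5′ ratios were 1.17 to 1.44 on the bright arrays and 1.11 to 1.25 on the dim ones. Marginal 5 (Gapdh 0.839, actin 1.33) and transitional 3 (0.721 and 1.44) lay above every dim array on both ratios and marginal 6 (0.681 and 1.17) did not, and their part in the differences was not tested.

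**Figure D5:**
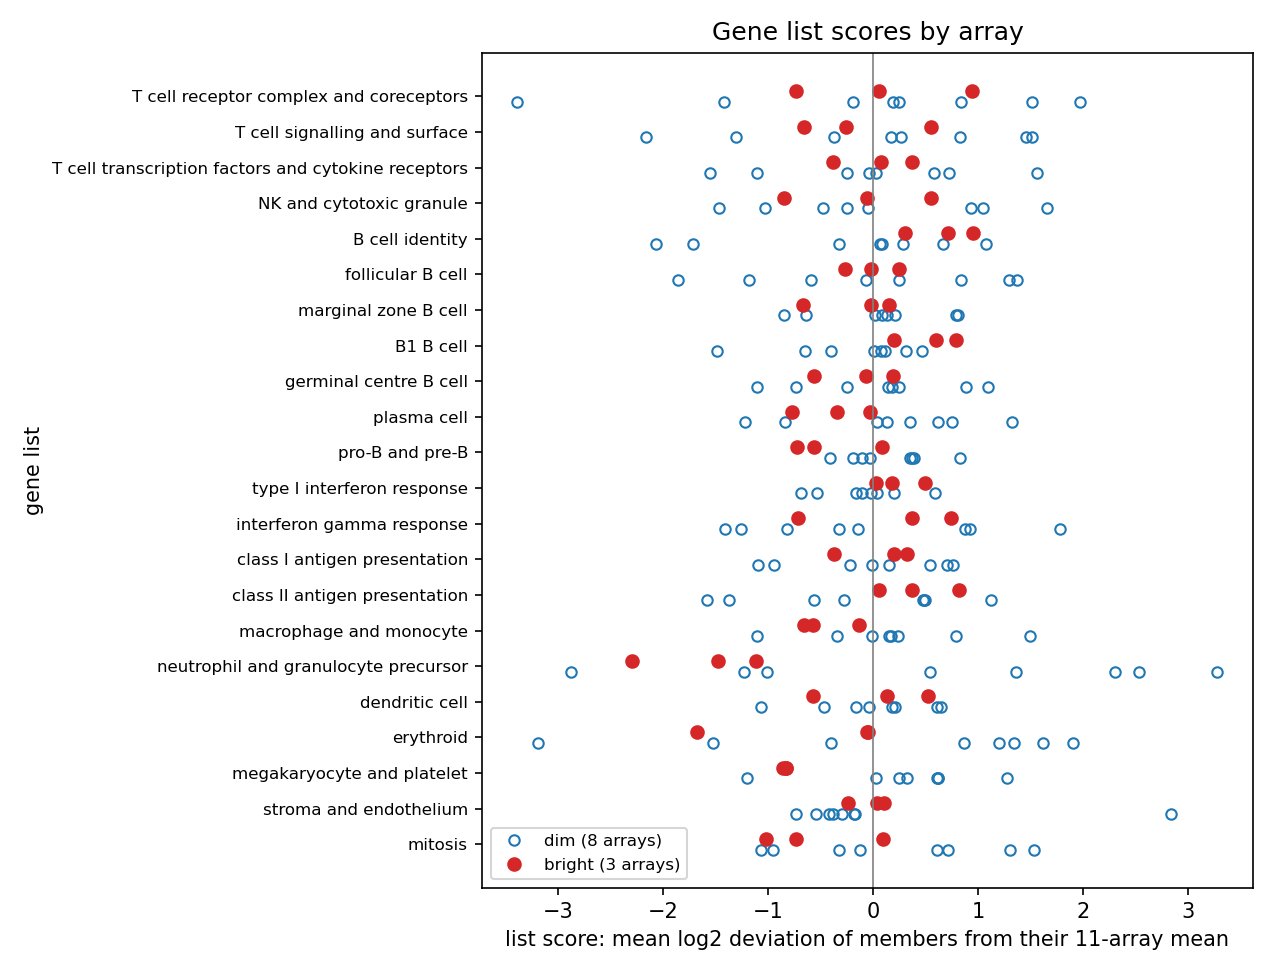
List scores (x axis, log2 distance from the mean of the 11 arrays, averaged over a list's members) for 22 gene lists (y axis), with bright tumours filled and dim tumours open. Bright tumours lie inside the dim range for T cell receptor genes, and for the B cell identity list they span 0.30 to 0.95 while 2 dim tumours fall to −1.72 and −2.07.

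Within the marginal class alone, where 2 bright tumours were compared with 4 dim ones, limma called 17 probe sets higher (0.0751%) and 35 lower (0.155%) at an adjusted p of 0.05. Il5ra was among those that rose, at 2027 and 1836 against 149.2, 172.4, 299 and 406.7 (difference 2.94, SE 0.40, adjusted p = 0.0284), and so were Mcoln2 (2.32, SE 0.35, adjusted p = 0.0457) and Pafah1b3 (2.25, SE 0.34, adjusted p = 0.0438). The H2-D1 probe set that varied most had the largest rise (4.36, SE 0.32, adjusted p = 0.00241). In this class the Ms4a4b-bright tumours and those bright on this H2-D1 probe set are the same 2. They are also the only marginal tumours recorded with a moderate spleen enlargement (marginal 1 to 4 were recorded as marginal or mild). Ms4a4b, the signal of this H2-D1 probe set and spleen grade therefore cannot be told apart in these calls. Other genes that rose were Nme1, a nucleoside diphosphate kinase (2.71), Lmo7, a LIM domain protein (3.15), Ahnak, a large scaffold protein (1.95), the long non-coding Gas5 (2.71) and Zbtb20, a transcriptional repressor (1.61).

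Among the probe sets that fell within the marginal class were 5 of Ighm, with differences of −2.97 to −3.56, and several of kappa light chains, of which Igkv9-120 differed by −4.52 (SE 0.41, adjusted p = 0.00563). Tnfrsf17, the plasma cell receptor BCMA, fell by 2.95 (SE 0.41, adjusted p = 0.0325), and Tmem176b fell by 2.43 (SE 0.35, adjusted p = 0.0382). Genes of macrophages and granulocytes that fell were Lyz2, lysozyme (−2.48), Lgals3, galectin 3 (−2.86), and the chemokines Ccl6 (−2.22) and Ccl9 (−3.13 and −2.69 on its probe sets). The platelet chemokine Ppbp fell by 2.96.

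Transitional 3, the third bright tumour, took no part in that fit and was then set against the 4 dim transitional tumours, a check chosen after the data were seen. It lay above all 4 in 5 of the 17 probe sets that rose (29.4%), beside 24.5% of all probe sets, and below all 4 in 3 of the 35 that fell (8.57%), beside 15.4%. By this measure the shares were near the background, and the marginal calls as a set did not place transitional 3 outside the 4. The median difference of transitional 3 from the mean of the 4 was 0.55 over the 17 and −0.42 over the 35. Over all probe sets it was 0.1. On Ighm probe set B, transitional 3 (686.8) could not count as below all 4, since dim transitional 2 read 223.9. The 5 that were above held Il5ra (difference 2.05), Mcoln2 (2.65), Pafah1b3 (2.30), Etl4 (1.22) and a probe set with no single gene name. The 3 below held Tmem176b (−1.18), Ighm probe set C (−2.53) and a probe set with no single gene name. The H2-D1 probe set that rose within the marginal class went the other way in transitional 3 (−2.76).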

How the data were processed

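RNA from 11 lymphomas was hybridised to 1 Affymetrix array each. The authors deposited MAS5 signals, intensities on a linear scale, per the submitters' processing notes, whose version is not given. Every array has the same trimmed mean, and the depth of an array has no counterpart to read counts. The members and gene lists were chosen with earlier results of these data known. Of 22690 probe sets, 64 controls and both Ms4a4b probe sets were left out. Differences were tested with limma 3.58.1 (R 4.3.3, lmFit and eBayes with trend) on log2(signal + 16), adjusted by Benjamini-Hochberg over 22624 probe sets. In lists, and for cell type markers and chromosomal neighbours, a gene was read from its brightest probe set. Genes named for a small p were read from their smallest-p probe set, and genes named for a gap from their widest-gap one. Probe sets were named from the platform annotation (20380 with 1 gene, 691 with several, 1555 with none), and 20351 matched RefSeq by Entrez identifier. Of 349 list genes, 283 were measured. Lck, Trac and Klrb1c had no probe set under a single symbol. Named genes are the Ms4a family and its neighbours, the 8 genes with the smallest p and the 8 with the widest gap in each direction, cell type markers, the 2 list members with the smallest p, and H2-D1, Brd2 and sex-linked transcripts. Other list members were named after their values were seen. The labels give no batch. Alternatives were other offsets, normalizations, filters, arrays and covariates. The method was tested on simulated data.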

Additional observations from a re-analysis of the deposited data

Results flagged for a closer look

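In transitional 3 the main Ms4a4b probe set read 3430 while the next transitional tumour read 11.9, a gap of 0.92 of the range of the 5 tumours; this restates the choice of the bright tumours. In the same tumour Kcnk1 read 92 against a next value of 6.9, a gap of 0.90 of the range. Kcnk1 was named for its small p between bright and dim tumours, and transitional 3 is the only bright transitional tumour. Its flag therefore follows in part from that choice. These are 2 outlying arrays among 88 groups of values examined. Chance alone flags about 1 group in 20, a rate that does not hold for genes chosen by the split.

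A probe set with no single gene name differed between the classes in its bright minus dim difference, by 6.14 on the log2(signal + 16) scale. It read 1815 in transitional 3 and at most 17.3 in the other 10 tumours, so the difference rests on 1 array.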

How the results depend on the processing

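The count of probe sets past an adjusted p of 0.05 in limma was 0 higher and 0 lower as reported (1600 and 997 at an unadjusted p). It became 2 lower with an offset of 1 (Il13ra1 and Slc25a13), and 1 lower, Il13ra1, with quantile normalization, with median centring and with eBayes without trend. It was 17 higher and 35 lower in the marginal class only, and 9 lower in the arrays with Eif2s3y below 100 only. Leaving out each tumour in turn gave 0 to 2 higher and 0 to 0 lower. The 2 came without transitional 3 (probe sets with no single gene name). With the replicate number as a block the counts were 0 and 0 (smallest adjusted p = 0.548). The samples of equal number deviated with correlations of −0.34 to −0.063 over the 5 numbers, so the numbers pair nothing here. The other settings (offset 64, upper 60% or 40% of probe sets by mean, array weights, class or B cell identity as a covariate, without transitional 4 and 5, without the arrays with Ms4a3 above 1000) gave 0 and 0.

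Of 1066 values of 42 named genes under these settings, 1022 kept direction and call, 8 gained a call, none lost one and 36 changed sign, all of the latter in T cell, natural killer and B cell markers that were never called. Cd3d became −0.01 with array weights. With the replicate number as a block, Cd247 was 1.74, Cd3e 1.64, Cd4 2.05, Cd8a 0.76, Gzmb 1.34, Ncr1 0.59 and Prf1 0.68, and the T cell receptor list median 2.01. In the marginal class only, Cd3d was −1.18, Cd3g −0.12, Gzmb 0.02 and Pax5 −0.35. Without transitional 4 and 5, Cd3d was −0.87, Cd3g −0.09, Cd8b1 −0.35 and Pax5 −0.26. Without the arrays with Ms4a3 above 1000, Cd3d was −1.27, Cd3g −0.65, Cd8b1 −0.63 and Pax5 −0.22. With B cell identity as a covariate, Cd3d was −1.38, Cd3g −0.68, Cd79a 0, Cd8b1 −0.77 and Pax5 −0.44. Cd79a and Pax5 belong to the list averaged for that covariate, so their change there is partly built in. Leaving out each tumour in turn moved Cd3d between −0.63 and 0.59, Ncr1 between −0.58 and 0.24, Cd3e between −0.90 and 0.04, Gzmb between −0.79 and 0.13, Cd8a between −0.73 and 0.14, and Cd8b1 between −0.06 and 1.11. The cause was not tested. Of 675 list medians under these settings, 20 moved by over 1 SD of the dim scores. Signals of a few units limit Il13ra1, Tle1, Slc25a13 and Kcnk1. The settings with Eif2s3y, Ms4a3 and B cell identity were chosen after seeing the data.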
